A study of Mus musculus with 2 samples.

Results

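The RNA polymerase I (Pol I) machinery was described through 8 genes chosen by name, *Polr1a*, *Polr1b*, *Polr1c*, *Polr1d*, *Polr1e*, *Ubtf*, *Rrn3* and *Taf1d*, out of 54146 genes in the count files. All 8 were found by their Ensembl identifiers without the version, and all 8 passed the minimum of 200 UMIs over both libraries used for counts over many genes. They were measured in mouse ES cells with 2 inDrop libraries, 1 per genotype (wild-type, *Lin28a* knockout). In the paper both are clones of the ES line E14. The wild-type clone was transfected, and the knockout is a single clone made by CRISPR/Cas9. Both cultures grew on mouse embryonic fibroblast feeders in LIF/2i medium, both were otherwise untreated, and in inDrop each captured transcript is counted once through its unique molecular identifier (UMI). A ratio of the libraries therefore compares 2 cultures, and the genotype cannot be told apart from any other difference between them. With 1 library per genotype no test was made, and all intervals are exact, at 95%, and cover counting error only.

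Pol I transcribes the ribosomal RNA genes in the nucleolus into a long precursor, from which most of the RNA of the ribosome is cut. The enzyme is recruited by the factor SL1, which holds TBP and its associated factors, together with the DNA-bending protein UBF, and it can start only when the factor RRN3 is attached. Ribosome production is high in growing pluripotent cells, and the study placed these cells along an axis of ribosomal protein (RP) expression. The genes were therefore followed by library and by RP share, the percentage of a cell's UMIs that lay on 87 cytoplasmic RP genes.

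After removal of barcodes with under 500 UMIs or over 20% mitochondrial UMIs, 1856 cells of the wild-type library (median 6140 UMIs) and 1622 of the knockout library (median 5063.5 UMIs) remained. All 10 ES-like markers had UMIs in both libraries and summed to 4717 counts per 1000000 UMIs (CPM) in wild-type and 4861 CPM in knockout cells. *Lin28a* itself was at 107 CPM (interval 100.9 to 113) and 36.6 CPM (32.8 to 40.7), or 0.343 of the wild-type level. inDrop tags the 3′ end of a transcript and the guide RNA was directed at an early exon, so this level does not read the edit itself. Feeder fibroblast-like markers, 11 of 11 detected in each library, summed to 1215 CPM in wild-type and 660 CPM in knockout cells. Cells with at least 0.5% of UMIs on 3 collagen genes numbered 41 and 21.

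Of the 8 genes, *Taf1d* was the one whose level differed most between the libraries. It encodes a TBP-associated factor of SL1 and lies on chromosome 9 from 15306214 to 15316991 of GRCm38, plus strand (ENSMUSG00000031939.16 in the files). The wild-type library held 4635 *Taf1d* UMIs, 398 CPM (387 to 409.9), and the knockout library 2668 UMIs, 286 CPM (275 to 297). Knockout over wild-type gave a ratio of 0.717 (0.684 to 0.752), the form of all ratios between the libraries below, and the CPM intervals of the libraries did not overlap. *Taf1d* alone supplied 31.3% of the UMIs of the 8 genes in wild-type and 24.5% in knockout cells.

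The sequences upstream of 4 of the genes are shown because the results below split the genes by RP share. They are a pair with higher levels in cells of low RP share, *Taf1d* and *Rrn3*, and a pair with the opposite order, *Polr1c* and *Polr1d*. *Ubtf* also had that opposite order, and its 6 windows are not shown. Each run is the 250 bases before the start of transcription annotated by RefSeq, 5′ to 3′ on the gene's own strand, on GRCm38.p6. The gene coordinates below are those of GENCODE, whose starts can differ, so that the *Polr1d* window lies inside the GENCODE gene and the *Polr1c* window overlaps its first bases. Capitals mark 4 short motifs found on either strand, the E-box CACGTG, the GC box GGGCGG, the ETS core CCGGAA and TATAAA.
Taf1d, chr9:15305964-15306213, plus strand: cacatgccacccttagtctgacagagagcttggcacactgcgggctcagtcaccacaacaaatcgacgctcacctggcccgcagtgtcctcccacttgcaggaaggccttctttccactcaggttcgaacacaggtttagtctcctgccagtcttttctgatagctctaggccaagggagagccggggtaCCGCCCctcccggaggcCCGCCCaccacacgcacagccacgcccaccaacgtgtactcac
Rrn3, chr16:13780449-13780698, plus strand: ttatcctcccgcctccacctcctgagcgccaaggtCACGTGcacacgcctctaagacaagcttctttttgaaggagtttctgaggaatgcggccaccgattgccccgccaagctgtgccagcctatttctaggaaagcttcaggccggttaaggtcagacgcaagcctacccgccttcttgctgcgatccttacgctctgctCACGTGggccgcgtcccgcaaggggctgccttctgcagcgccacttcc
Polr1c, chr17:46248046-46248295, minus strand: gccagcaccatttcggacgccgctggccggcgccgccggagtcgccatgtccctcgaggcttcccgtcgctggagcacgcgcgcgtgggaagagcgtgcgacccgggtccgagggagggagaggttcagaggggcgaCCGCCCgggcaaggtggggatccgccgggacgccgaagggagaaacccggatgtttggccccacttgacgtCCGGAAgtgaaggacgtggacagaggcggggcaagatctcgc
Polr1d, chr5:147077096-147077345, plus strand: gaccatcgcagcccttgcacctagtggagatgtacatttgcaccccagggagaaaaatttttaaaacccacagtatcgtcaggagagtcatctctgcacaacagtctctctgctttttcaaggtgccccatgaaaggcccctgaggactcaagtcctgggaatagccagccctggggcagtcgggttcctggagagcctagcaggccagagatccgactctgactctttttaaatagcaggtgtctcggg
The *Rrn3* window held 2 E-boxes, which start 215 and 48 bases before the start of transcription, and no other gene of the 8 held one. The E-box was present in 6.02% of all 32851 windows of the same length. The *Taf1d* window held 2 GC boxes, in reverse orientation, and the *Polr1c* window 1 GC box and 1 ETS core. GC boxes were also in the windows of *Polr1b* and *Polr1e* and in each *Ubtf* window but the first. GC boxes were present in 32.7% and ETS cores in 12.03% of all windows. The *Polr1d* window held none of the 4 motifs, and TATAAA, found in 12.4% of all windows, was in none of the 13 windows listed for the 8 genes. Neither pair shown shared a motif of the 4. GC boxes were held by *Polr1c* and *Ubtf*, of the same order along RP share, and also by *Taf1d*, of the other order. A match is a description of letters and not a binding site.

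The catalytic center of Pol I is formed by its largest subunits, encoded by *Polr1a* (ENSMUSG00000049553.11, chromosome 6, 71909053 to 71984935, plus strand) and *Polr1b* (ENSMUSG00000027395.15, chromosome 2, 129100995 to 129126594, plus strand). *Polr1a* was at 198 CPM (189.7 to 206) in wild-type and 213 CPM (204 to 223) in knockout cells, a ratio of 1.08 (1.01 to 1.15). *Polr1b* was at 37.7 CPM (34.3 to 41.4) and 46.2 CPM (42.0 to 50.8), a ratio of 1.23 (1.07 to 1.40). Both ratios of the catalytic pair were slightly over 1, and only for *Polr1b* did the CPM intervals leave a gap. The interval of the *Polr1a* ratio included 1 in 6 of the 12 other settings run for single genes. Over cells of 5000 to under 10000 UMIs the *Polr1a* ratio was 0.997 (0.913 to 1.09) and that of *Polr1b* 1.21 (1.004 to 1.46). *Polr1a* was at 1.51 (1.09 to 2.14) under 2000 UMIs, 1.20 (1.01 to 1.43) from 2000 to under 5000 and 1.14 (1.02 to 1.29) at 10000 and over. In the same classes *Polr1b* was at 0.434 (0.158 to 1.21), 1.26 (0.806 to 1.95) and 1.515 (1.16 to 2.00). As printed ratios, *Polr1a* at 1.51 and *Polr1b* at 0.434 and 1.515 lay past 1.5-fold. The share of all genes past that limit in these classes is not given here. UMIs at the 3′ end are not divided by length, and how well each gene is captured was not tested, so a lower CPM of *Polr1b* than of *Polr1a* is not a measure of fewer subunits.

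*Polr1c* and *Polr1d* encode the pair of subunits on which Pol I assembles, and both are also part of RNA polymerase III. *Polr1c* (ENSMUSG00000067148.15, chromosome 17, 46243920 to 46248054, minus strand) was at 139.8 CPM (133 to 147) in wild-type and 136 CPM (129 to 144) in knockout cells, a ratio of 0.974 (0.905 to 1.05). *Polr1d* (ENSMUSG00000029642.11, chromosome 5, 147077050 to 147111597, plus strand) was at 235 CPM (226 to 244) and 214 CPM (205 to 223), a ratio of 0.909 (0.858 to 0.964). The *Polr1c* levels did not differ beyond counting error, and *Polr1d* was lower in the knockout library by a margin just past it. The *Polr1d* ratio was under 1 in each class of depth. Its interval left 1 only from 5000 to under 10000 UMIs, at 0.894 (0.821 to 0.973). *Polr1e*, which encodes a subunit of the heterodimer peripheral to the core (ENSMUSG00000028318.14, chromosome 4, 45018583 to 45036565, plus strand), was the least counted of the 8, with 209 and 206 UMIs. Its levels were 18.0 CPM (15.6 to 20.6) and 22.1 CPM (19.1 to 25.3), a ratio of 1.23 (1.01 to 1.496), with an interval that included 1 in 5 of the 12 other settings. The 3′ end of *Polr1e* overlaps *Fbxo10* on the opposite strand, which had 49 and 32 UMIs.

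Over all cells the remaining initiation factors did not differ between the libraries beyond counting error. *Ubtf*, which encodes UBF (ENSMUSG00000020923.17, chromosome 11, 102304560 to 102319742, minus strand), was at 187.9 CPM (180.1 to 196) in wild-type and 190.3 CPM (182 to 199) in knockout cells, a ratio of 1.01 (0.951 to 1.08). *Rrn3* (ENSMUSG00000022682.8, chromosome 16, 13780708 to 13814839, plus strand) was at 59.3 CPM (54.9 to 63.9) and 59.5 CPM (54.7 to 64.7), a ratio of 1.004 (0.896 to 1.12).

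**Figure D1:**
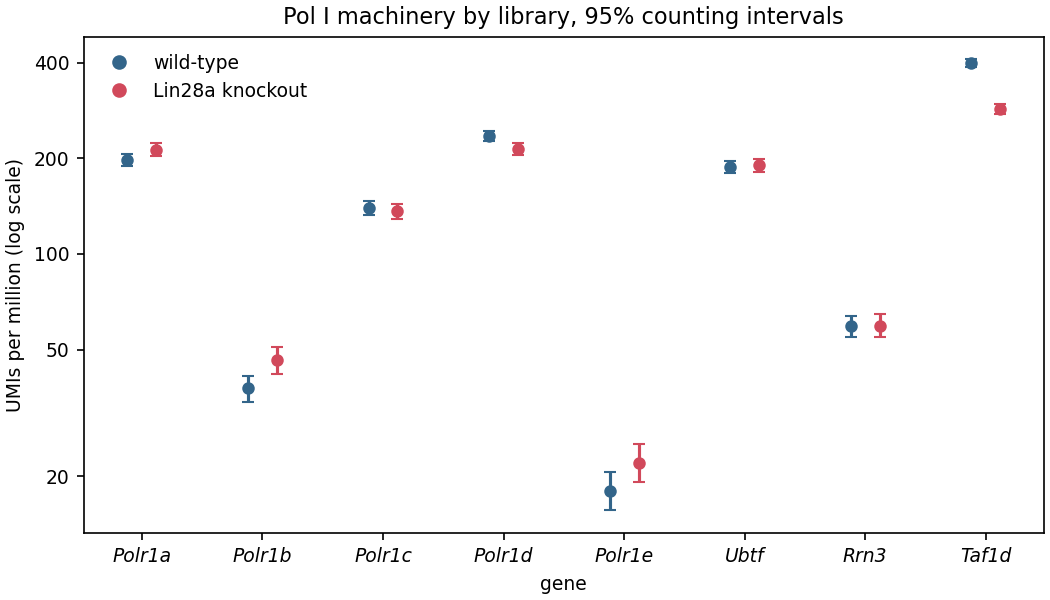
The 8 genes on the horizontal axis and their CPM on a log axis, with 1 point per library (blue wild-type, red *Lin28a* knockout) and bars for exact Poisson 95% intervals, which cover counting error only. *Taf1d* sits at 398 against 286 CPM, *Rrn3* at 59.3 against 59.5 CPM and *Polr1e* lowest at 18.0 against 22.1 CPM.

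In order of level the wild-type library ran *Taf1d*, *Polr1d*, *Polr1a*, *Ubtf*, *Polr1c*, *Rrn3*, *Polr1b* and *Polr1e*. The knockout library had the same order, with *Polr1d* and *Polr1a* level at 214 and 213 CPM. In wild-type cells the intervals of the neighbours *Polr1a* and *Ubtf* overlapped, and all other neighbours were apart.

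None of the 8 genes passed 1.5-fold between the libraries, against 14.9% of the 9835 genes with at least 200 UMIs. Their median ratio was 1.01, as was that of the 9835 genes, and 3 of the 8 ratios were under 1. Summed, the 8 genes held 14825 wild-type and 10900 knockout UMIs, 1274 against 1167 CPM and a ratio of 0.916 (0.894 to 0.939). The lower sum rested on *Taf1d*: without it the other 7 genes summed to 875 and 881 CPM, a ratio of 1.01 (0.978 to 1.04). Over cells of 5000 to under 10000 UMIs the *Taf1d* ratio was 0.567 (0.524 to 0.612), past 1.5-fold, and over cells of at least 5% RP share it was 0.624 (0.592 to 0.657). In the other classes of depth it was nearer to 1, at 0.811 (0.676 to 0.976) from 500 to under 2000 UMIs, 0.899 (0.791 to 1.02) from 2000 to under 5000 and 0.761 (0.695 to 0.834) at 10000 and over. The summed ratio was 0.860 (0.829 to 0.892) in cells of 5000 to under 10000 UMIs and 0.943, 0.976 and 0.976 in the same 3 other classes, with intervals that included 1. *Rrn3*, level over all cells, was at 1.496 (1.19 to 1.89) in cells of at least 10000 UMIs and under 1 in the 3 shallower classes, with intervals that included 1. Over the settings with the minimum of 200 UMIs, the median ratio of all genes lay between 0.980 and 1.03.

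Along RP share the 8 genes split into groups of opposite order. Low-RP cells, those with an RP share under 10%, were 1023 of 1856 wild-type (55.1%) and 672 of 1622 knockout cells (41.4%). Their median depths were 6103 and 3161 UMIs, against 6175 and 5486.5 UMIs in the other cells. With a limit of 5% the order of the libraries turned, at 91 of 1856 wild-type and 233 of 1622 knockout cells. Among wild-type cells 2 of the 8 genes passed 1.5-fold between low-RP and other cells, against 40.6% of the 9835 genes, and among knockout cells 1 of the 8 did, against 49.7%. Both counts were under the background share, for which no test was made. The 2 wild-type genes, *Taf1d* and *Rrn3*, were close to the limit with 1.52 each. The count was 0 without RP and mitochondrial genes in the total and 1 in 5 of the 13 other settings. With an RP limit of 5% more genes passed 1.5-fold. In wild-type cells *Taf1d* was at 3.81, *Rrn3* at 1.56 (0.710 to 2.98), *Polr1c* at 0.291 (0.0791 to 0.746) and *Polr1d* at 0.216 (0.0701 to 0.505), and *Polr1e* had no UMI. The wild-type cells under 5% held only 9 *Rrn3*, 4 *Polr1c* and 5 *Polr1d* UMIs. In knockout cells *Taf1d* was at 6.05, *Polr1a* at 2.11, *Polr1b* at 0.322, *Polr1c* at 0.484 and *Polr1d* at 0.448. The share of all genes past 1.5-fold at that limit is not given here. The median ratio of the 8 genes was 0.873 in wild-type and 0.952 in knockout cells, beside 1.11 and 1.18 for all genes tested.

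*Taf1d* and *Rrn3* were the genes with higher levels in low-RP cells. Feeder fibroblast-like markers, 11 of 11 detected in each set, moved with the same split, at 1628 CPM in low-RP and 721 CPM in other wild-type cells and at 878 and 517 CPM in knockout cells. *Taf1d* was at 471 CPM in low-RP and 311 CPM in other wild-type cells, a ratio of 1.52 (1.43 to 1.61). In the knockout library the same levels were 422 and 197 CPM, a ratio of 2.14 (1.98 to 2.32). *Rrn3* was at 70.2 and 46.2 CPM in wild-type cells, a ratio of 1.52 (1.30 to 1.78), and at 74.0 and 50.1 CPM in knockout cells, a ratio of 1.48 (1.25 to 1.75). These ratios stayed above 1 in each of the 13 other settings tried, in both libraries, although with a low-RP limit of 5% the *Rrn3* intervals included 1. Their size depended on the limit: with 5% *Taf1d* gave 3.81 (3.21 to 4.50) and 6.05 (5.47 to 6.68), and with 15% *Rrn3* gave 2.07 (1.57 to 2.79) and 2.48 (1.89 to 3.30). Within cells of 5000 to under 10000 UMIs they were 1.51 and 1.62 for *Taf1d* and 1.63 and 1.46 for *Rrn3*. With RP and mitochondrial genes taken out of the total they were 1.45 and 2.05 for *Taf1d* and 1.45 and 1.41 for *Rrn3*, so that *Taf1d* and *Rrn3* remained higher in low-RP cells without the RP genes in the total.

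*Polr1c*, *Polr1d* and *Ubtf* had the opposite order. *Polr1d* was at 209 CPM in low-RP and 267 CPM in other wild-type cells, a ratio of 0.783 (0.726 to 0.844), and the knockout ratio was 0.765 (0.696 to 0.840). For *Ubtf* the ratios were 0.808 (0.742 to 0.879) and 0.816 (0.739 to 0.900). For *Polr1c* they were 0.818 (0.742 to 0.903) and 0.883 (0.786 to 0.990). The intervals of these 3 genes lay under 1 in both libraries, by a narrow margin for *Polr1c* in knockout cells. That interval reached past 1 within cells of 5000 to under 10000 UMIs, at 0.824 (0.675 to 1.002), as did the one of *Ubtf*, at 0.881 (0.744 to 1.04). By depth the knockout *Polr1c* intervals included 1 in every class. In wild-type cells *Polr1c* left 1 only at 5000 to under 10000 UMIs, at 0.774 (0.685 to 0.875). *Ubtf* left 1 in knockout cells only at 10000 UMIs and over, at 0.743 (0.638 to 0.863). In wild-type cells it did so from 5000 UMIs up, at 0.817 and 0.805. *Polr1d* intervals lay under 1 in each class in both libraries. *Polr1e* had ratios of 0.781 (0.590 to 1.03) and 0.823 (0.609 to 1.10), and *Polr1b* of 1.06 (0.870 to 1.28) and 1.04 (0.856 to 1.27), whose intervals included 1. *Polr1b* was low in the knockout class under 5% RP share, with 5 UMIs or 15.3 CPM (4.96 to 35.6), against 50.6, 48.9 and 39.9 CPM in the classes above it. With an RP limit of 5% its knockout ratio was therefore 0.322 (0.104 to 0.758). For *Polr1e* the wild-type ratio was 0.746 (0.563 to 0.988) without RP and mitochondrial genes in the total, and the knockout ratio 0.681 (0.503 to 0.931) with an RP limit of 15%. *Polr1a* was at 0.932 (0.858 to 1.01) in wild-type and 1.03 (0.938 to 1.12) in knockout cells, with intervals that included 1. In wild-type cells it left 1 without RP and mitochondrial genes in the total, at 0.889 (0.819 to 0.966), and with an RP limit of 15%, at 0.888 (0.795 to 0.994). By depth the *Polr1a* ratio was 0.732 (0.601 to 0.891) in wild-type cells of 10000 UMIs and over. In knockout cells of 2000 to under 5000 UMIs it was 1.54 (1.17 to 2.00), and in the other classes of depth the intervals included 1. The sums of the 8 genes hid this split: they gave ratios of 1.03 (1.00001 to 1.07) and 1.13 (1.09 to 1.17) with *Taf1d*, and 0.873 (0.840 to 0.908) and 0.910 (0.870 to 0.951) without it. The interval of the wild-type sum included 1 in 6 of the 14 other settings, and that of the knockout sum in cells of 5000 to under 10000 UMIs, at 1.03 (0.961 to 1.10), and with cells under 5% RP share left out, at 1.02 (0.984 to 1.07). The sums also moved with depth. Under 2000 UMIs the summed low-RP ratios were 1.89 (1.47 to 2.44) and 1.69 (1.45 to 1.98), and from 2000 to under 5000 UMIs 1.01 (0.926 to 1.10) and 1.68 (1.495 to 1.88). From 5000 to under 10000 UMIs they were 1.05 and 1.03, and at 10000 and over 0.931 and 0.999. *Taf1d* alone ran from 5.80 and 6.46 in the shallowest class to 1.31 (1.14 to 1.51) and 1.45 (1.28 to 1.64) in the deepest, above 1 in each of the 4 classes in both libraries.

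Along 4 classes of RP share (under 5%, 5% to under 10%, 10% to under 15%, 15% and over) the median mitochondrial share of the cells also moved, at 4.32%, 1.69%, 1.02% and 0.180% in wild-type and 5.98%, 2.50%, 1.32% and 0.266% in knockout cells. Its part in the levels by class was not tested. In these classes the order of *Taf1d* was stepwise. In wild-type cells it was at 1483 CPM under 5% RP share, 455 CPM from 5% to under 10%, 365 CPM from 10% to under 15% and 199 CPM at 15% and over. In knockout cells the same classes held 1469, 319.7, 235 and 134 CPM. *Taf1d* in the knockout library was thus lower in the 3 classes from 5% upward, with ratios of 0.702 (0.654 to 0.753), 0.644 (0.590 to 0.704) and 0.672 (0.573 to 0.788). Under 5% the *Taf1d* levels of the libraries were alike within counting error, with a ratio of 0.991 (0.821 to 1.20). There *Taf1d* supplied 70.7% of the UMIs of the 8 genes in wild-type and 60.3% in knockout cells.

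*Rrn3*, whose product makes Pol I competent to start, was at 92.0, 69.8, 53.7 and 31.0 CPM over the same classes in wild-type cells. In knockout cells it was at 73.3, 74.1, 63.8 and 27.8 CPM. From the class of 5% to under 10% to that of 15% and over, the intervals of *Rrn3* were apart in both libraries. The classes under 5% held only 9 and 24 *Rrn3* UMIs, with intervals of 42.1 to 175 CPM and 47.0 to 109 CPM. These lay above the intervals at 15% and over, and their order against the classes between was not resolved at this depth.

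*Polr1d*, of the assembly pair, ran the other way, at 51.1, 211, 261 and 278 CPM in wild-type and 97.7, 188, 237 and 233 CPM in knockout cells. Its partner *Polr1c* had the same order in wild-type cells, at 40.9, 128, 149 and 167 CPM, and in knockout cells was at 67.2, 132, 143 and 143 CPM, level above 10%. The wild-type levels under 5% rested on 5 *Polr1d* and 4 *Polr1c* UMIs, with intervals of 16.6 to 119 CPM and 11.1 to 105 CPM. *Ubtf* was at 133, 170.1, 199.5 and 231 CPM in wild-type cells. In knockout cells *Ubtf* was at 259.5, 159, 191 and 228 CPM, so its level under 5% stood above the next class, with intervals apart. *Polr1a* had the same bend, at 434 CPM (365 to 511) under 5% against 195 CPM (181 to 211) in the next class of the knockout library. In wild-type cells the *Polr1a* levels were 266 CPM (174 to 389.5) and 190.1 CPM (179 to 201), with intervals that overlapped. Under 5% RP share the ratio between the libraries was 1.63 (1.07 to 2.58) for *Polr1a*, from 26 wild-type and 142 knockout UMIs. For *Ubtf* it was 1.95 (1.08 to 3.82), from 13 and 85 UMIs.

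**Figure D2:**
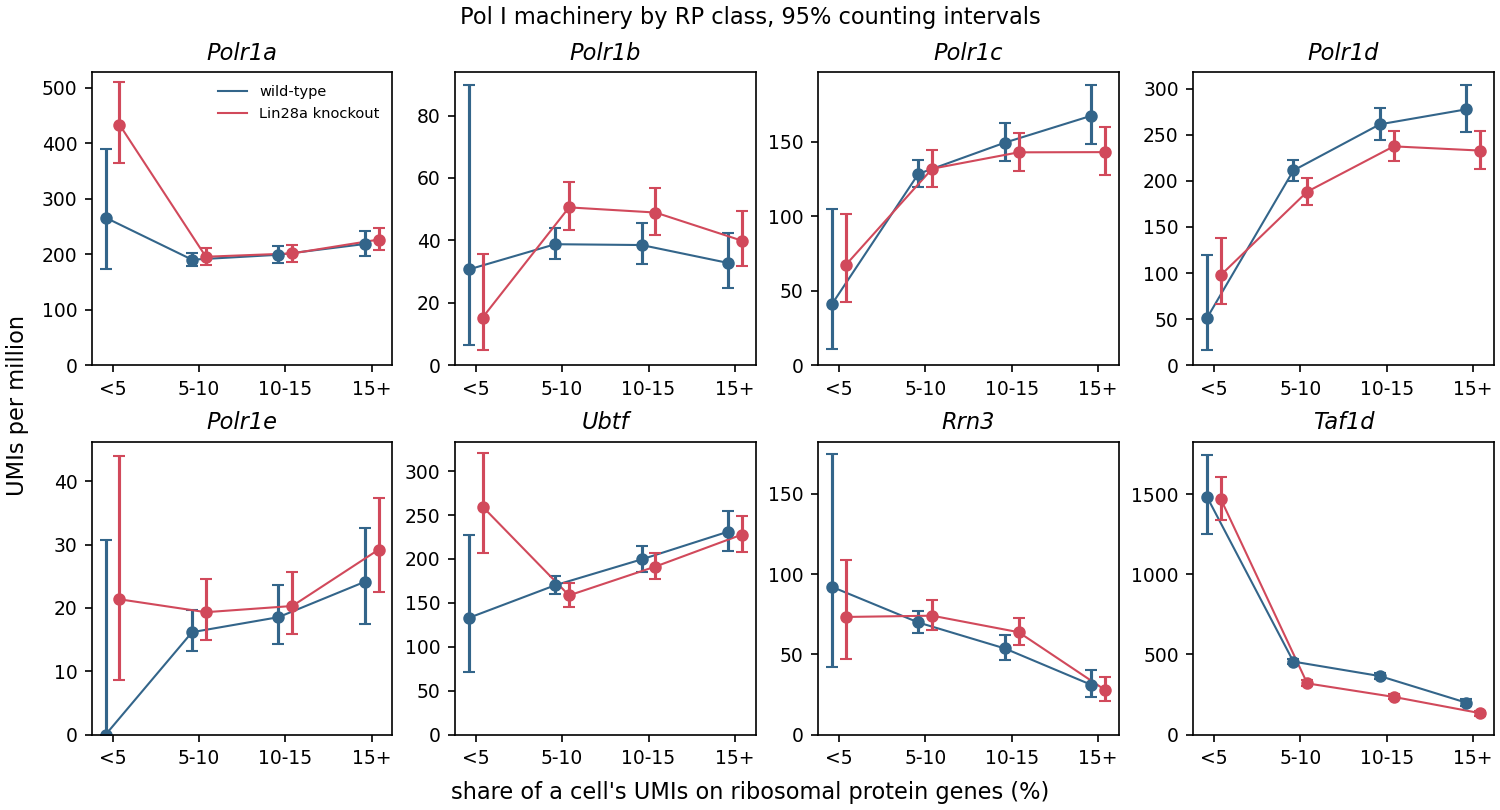
Each panel is 1 gene, with the class of RP share on the horizontal axis (percentage of a cell's UMIs on RP genes) and CPM on the vertical axis, which starts at 0 and differs between panels. Points are libraries (blue wild-type, red *Lin28a* knockout) and bars exact Poisson 95% intervals for counting error, drawn for the class without a *Polr1e* UMI up to the 3-count limit. *Taf1d* steps from 1483 to 199 CPM in wild-type cells, while *Polr1d* goes from 51.1 to 278 CPM. The 51.1 CPM rests on 5 UMIs.

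The cells under 5% RP share stood apart in other ways, so the low-RP ratios are also given without them. They were 91 wild-type and 233 knockout cells, with median depths of 830 and 1214 UMIs and median mitochondrial shares of 4.32% and 5.98%, against 1.35% and 1.64% over all cells. Feeder fibroblast-like markers summed to 9079 CPM in these wild-type and 1899 CPM in these knockout cells, with 10 and 11 of the 11 markers detected. ES-like markers were at 1932 and 2834 CPM. The part of depth, mitochondrial share and feeder RNA in the levels of the 8 genes there was not tested. Collagen-rich cells, of which 7 wild-type and 11 knockout cells were in these classes, held *Taf1d* at 125 CPM (93.3 to 165) in wild-type and 212 CPM (134 to 317) in knockout cells. No *Polr1e* UMI was found among the 97805 UMIs of the wild-type class, which allows up to 30.7 CPM.
With the cells under 5% left out, the low-RP ratios of *Taf1d* were 1.46 (1.38 to 1.56) in wild-type and 1.62 (1.49 to 1.77) in knockout cells. For *Rrn3* they were 1.51 and 1.48. For *Polr1d* they were 0.792 (0.734 to 0.855) and 0.799 (0.726 to 0.879), and for *Ubtf* 0.810 (0.744 to 0.882) and 0.772 (0.696 to 0.857). *Polr1c* was at 0.827 (0.749 to 0.913) in wild-type cells and at 0.923 (0.820 to 1.04) in knockout cells, where its interval then included 1. With the collagen-rich cells left out instead, *Taf1d* gave 1.54 and 2.14 and *Rrn3* 1.53 and 1.49.

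Barcodes under 500 UMIs, which include free RNA, gave another view of the background. They held 439056 wild-type and 673183 knockout UMIs. *Taf1d* was at 225 CPM (183 to 275) and 242 CPM (206 to 282) there, under its level in wild-type cells and within overlapping intervals in the knockout library. *Rrn3* was at 178 CPM (140.4 to 222) and 138 CPM (112 to 169), above its level in cells in both libraries. *Polr1d* was at 212 and 166 CPM and *Ubtf* at 178 and 196 CPM. No cell type that lacks Pol I was at hand, so no share of cells free of the machinery could serve as background.

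In single cells the machinery was sparsely sampled. *Taf1d* had at least 1 UMI in 80.4% (78.5% to 82.2%) of the cells of the wild-type library and 61.5% (59.0% to 63.8%) of those of the knockout library, the highest shares of the 8 genes. *Polr1e* was at the other end with 10.4% and 11.3%. With each cell taken at 500 UMIs, the shares of *Taf1d* were 19.1% and 16.4% and those of *Polr1e* 0.838% and 1.12%. *Taf1d* thus had the lower share in the knockout library at equal depth too. For *Polr1a* the counted shares were 64.5% and 59.1%, and those at 500 UMIs 9.65% and 11.9%. For *Ubtf* they were 60.4% and 53.0%, and 8.88% and 9.59%, so that for both genes the order of the libraries turned with depth. The collagen-rich cells had a *Taf1d* UMI in 65.9% and 57.1% of cells, at median depths of 9273 and 2295 UMIs, and in 7.37% and 14.4% at 500 UMIs.

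Cells without a UMI of any of the 8 genes made up 3.99% (3.14% to 4.98%) of the wild-type library and 10.2% (8.80% to 11.8%) of the knockout library. Within cells of 5000 to under 10000 UMIs this was so for 2 of 1042 cells and 0 of 507 cells, respectively, and the median was 4 of the 8 genes in each library. Over all depths, the 8 genes were seen together in 13 wild-type and 17 knockout cells. Within 5000 to under 10000 UMIs the variance of *Taf1d* UMIs over cells was 1.78 times its mean in wild-type and 1.67 times in knockout cells. For the other 7 genes this quotient was between 1.01 and 1.30, where counting alone gives 1. *Taf1d* reached up to 16 UMIs in a wild-type and 10 in a knockout cell. This quotient grows with the mean, and relative to the squared mean the variance beyond counting was 0.276 and 0.406 for *Taf1d*, against 0.464 and 0.365 for *Rrn3* and 0.101 and 0.594 for *Polr1e*. On that scale *Rrn3* was above *Taf1d* in wild-type cells. In knockout cells only *Polr1e* was, with a mean of 0.166 UMIs per cell. These values have no intervals, so the order of the genes was not resolved. Depth still differed between cells of the class, and its part in the variance was not tested.

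**Figure D3:**
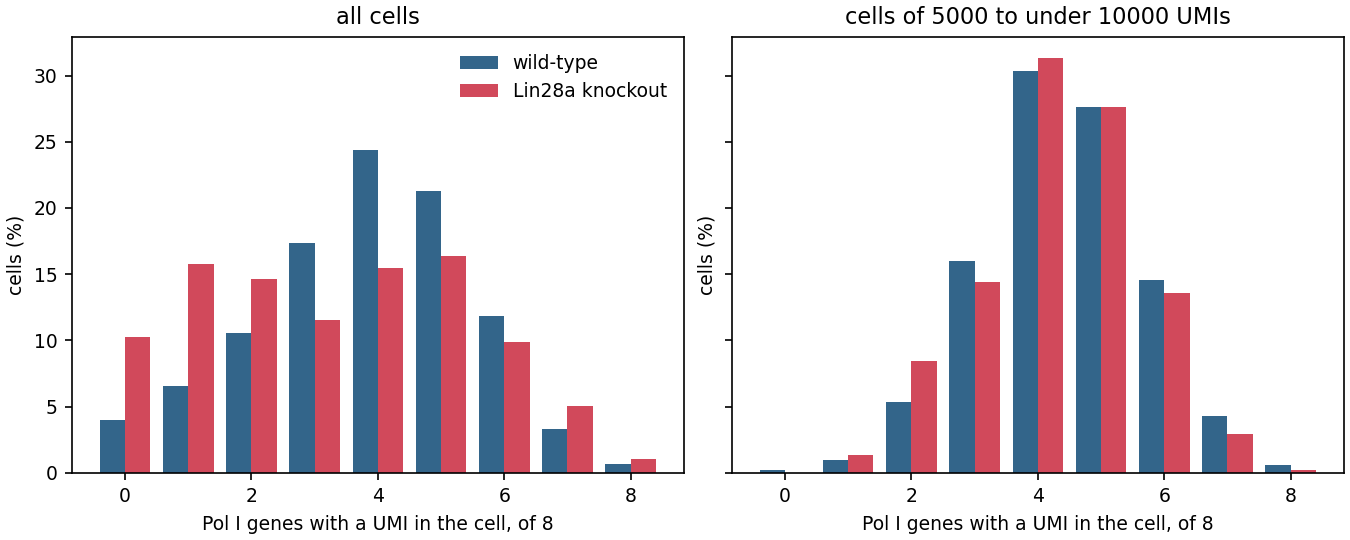
Share of cells (vertical axis, %) by how many of the 8 genes had a UMI (horizontal axis), for all cells on the left and for cells of 5000 to under 10000 UMIs on the right, with blue bars for the wild-type and red bars for the knockout library. The share at 0 is 3.99% against 10.2% on the left and close to 0 in both libraries on the right.

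*Taf1d* also differs from the other 7 genes in its annotation. Its locus holds 8 small nucleolar RNA (snoRNA) genes and 2 miRNA genes on the same strand, a gene organization that none of the other 7 has. snoRNAs guide modifications and cuts of the ribosomal RNA that Pol I makes. In GENCODE M21 *Taf1d* has 16 transcripts, of which 5 are protein-coding, 6 are retained introns and 4 are targets of nonsense-mediated decay. *Rrn3* has 2 transcripts, 1 of them a retained intron. *Polr1a* comes nearest to *Taf1d*, with 5 retained introns among 10 transcripts. The hosted snoRNA genes were counted separately, with 48 and 56 UMIs, and the counts do not tell which *Taf1d* transcript a UMI came from. The files count 7 wild-type and 18 knockout *Taf1d* UMIs as ambiguous between genes. *Taf1d* also overlaps *4931406C07Rik* and *Cep295* on the opposite strand, which had 285 and 613 UMIs in wild-type and 193 and 338 in knockout cells. Whether counting used strand is not given in the sources used here, and reads from *Taf1d* and these genes might then not be told apart where they overlap.

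Over the 8 strata of library and RP class the genes did not move as 1 group. The correlation of log2 CPM of each gene with the sum of the other 7 was 0.825 for *Polr1a*, 0.562 for *Rrn3* and -0.913 for *Polr1c*. It was -0.901 for *Polr1d*, -0.793 for *Polr1b*, -0.527 for *Polr1e*, -0.518 for *Taf1d* and -0.0754 for *Ubtf*. These values describe 8 points that share 2 libraries. For every gene except *Taf1d* the sum of the other 7 holds *Taf1d*, which supplied 70.7% and 60.3% of the UMIs of the 8 genes under 5% RP share. A negative value can thus set a gene against *Taf1d* alone. *Polr1c*, *Polr1d* and *Ubtf* rose together along RP share in wild-type cells. No correlation was made with *Taf1d* left out of the sum. Over the 6 strata without the shallow classes under 5%, *Polr1a* turned to -0.746, *Rrn3* was at 0.242, and *Polr1c* and *Polr1d* were at -0.205 and -0.191. The others were at -0.820 for *Polr1e*, -0.655 for *Taf1d*, -0.560 for *Ubtf* and -0.419 for *Polr1b*. Among 6281 other genes with at least 500 UMIs, *Pip5k1a* had the pattern most like the sum of the 8, with r = 0.992, followed by *Otud7b*, *Ep400* and *Gm32885*, all with r of at least 0.989. Without the classes under 5% these values were 0.880 for *Pip5k1a*, 0.782 for *Otud7b*, 0.911 for *Ep400* and 0.900 for *Gm32885*. The sum of the 8 holds *Taf1d* in the same way.

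Other genes of the ribosomal RNA pathway were set beside the 8 from lists of named genes. The other 8 subunits of Pol I, 5 of them shared with other polymerases, had a median ratio between the libraries of 1.03, and 0 passed 1.5-fold. *Polr2l* was highest at 1.32 (1.23 to 1.42), 129 against 171 CPM, and *Twistnb*, a Pol I subunit of the stalk, lowest at 0.857 (0.773 to 0.949). Like *Taf1d*, *Twistnb* was higher in low-RP cells, with ratios of 1.93 and 2.18 in the wild-type and knockout libraries. Of the 5 subunits shared by all 3 nuclear polymerases, *Polr2e*, *Polr2f*, *Polr2h* and *Polr2l* were lower there, at 0.576, 0.674, 0.628 and 0.736 in wild-type and 0.594, 0.702, 0.643 and 0.643 in knockout cells. The other, *Polr2k*, was higher, at 1.39 (1.20 to 1.62) in wild-type cells, and at 1.16 (0.971 to 1.38) in knockout cells.

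Of 6 further Pol I initiation, termination and release factors, 3 had at least 200 UMIs. *Ttf1*, which stops Pol I at the end of the ribosomal RNA gene, was at 168 and 209.5 CPM, a ratio of 1.25 (1.17 to 1.33). *Tbp*, the shared core of SL1, was at 0.915 (0.801 to 1.04). *Cavin1*, a transcript release factor that is also a coat protein of caveolae, was at 0.640 (0.558 to 0.733). The other SL1 subunit genes *Taf1a*, *Taf1b* and *Taf1c* had 89, 72 and 44 UMIs in wild-type and 71, 47 and 72 in knockout cells, so that *Taf1d* was the one SL1-specific subunit with a well counted level. From these few UMIs *Taf1a* was at 0.994 (0.717 to 1.37) and *Taf1b* at 0.813 (0.551 to 1.19). *Taf1c* was at 2.04 (1.38 to 3.04), in the direction opposite to *Taf1d*.

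The transcription-coupled processing (tUTP) genes, whose proteins join the nascent precursor, had ratios under 1 for 6 of 6 genes, against 47.7% of all genes tested. Their median ratio was 0.788, and 2 passed 1.5-fold, *Wdr75* at 0.629 (0.572 to 0.691) and *Utp4* at 0.664 (0.604 to 0.729). *Heatr1* was nearest to 1 at 0.928 (0.844 to 1.02). Among 10 chromatin and regulatory genes of the ribosomal RNA genes, 7 ratios were under 1, the median was 0.794 and 2 passed 1.5-fold. *Smarca5*, the remodeling ATPase of the silencing complex, was at 0.589 (0.558 to 0.621), and *Ncl*, the abundant nucleolar protein nucleolin, was at 2539.5 and 1555 CPM, a ratio of 0.612 (0.600 to 0.624). *Mybbp1a* was highest of these at 1.08 (1.01 to 1.15). These lists were chosen with earlier results known, and read against 14.9% of all genes past 1.5-fold their counts are descriptions.

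Between the libraries the Pol I genes were set beside the other polymerases by sums and by list medians. The summed ratio of 0.916 of the 8 genes stood beside 1.09 (1.06 to 1.12) for the Pol II core, 1.05 (1.02 to 1.08) for the other Pol I subunits and 0.954 (0.906 to 1.005) for Pol III, whose interval overlapped that of the 8 genes. The sums are unlike, because that of the 8 genes also holds the initiation factors *Ubtf*, *Rrn3* and *Taf1d*. Without *Taf1d* it gave 1.01 (0.978 to 1.04). The 7 Pol II core genes had a median ratio of 0.994, from *Polr2b* at 0.722 (0.653 to 0.798) to *Polr2a* at 1.32 (1.26 to 1.38), and 0 passed 1.5-fold. The 11 Pol III genes had a median of 1.06, with 1 past 1.5-fold, *Polr3g* at 0.598 (0.520 to 0.687), while *Polr3gl* was highest at 1.28 (0.976 to 1.68). Along RP share the Pol II core genes had median low-RP ratios of 0.731 and 0.765, the Pol III genes of 0.974 and 0.945, and the tUTP genes of 1.32 and 1.49. No test was made of how the 8 genes lie between these lists.

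**Figure D4:**
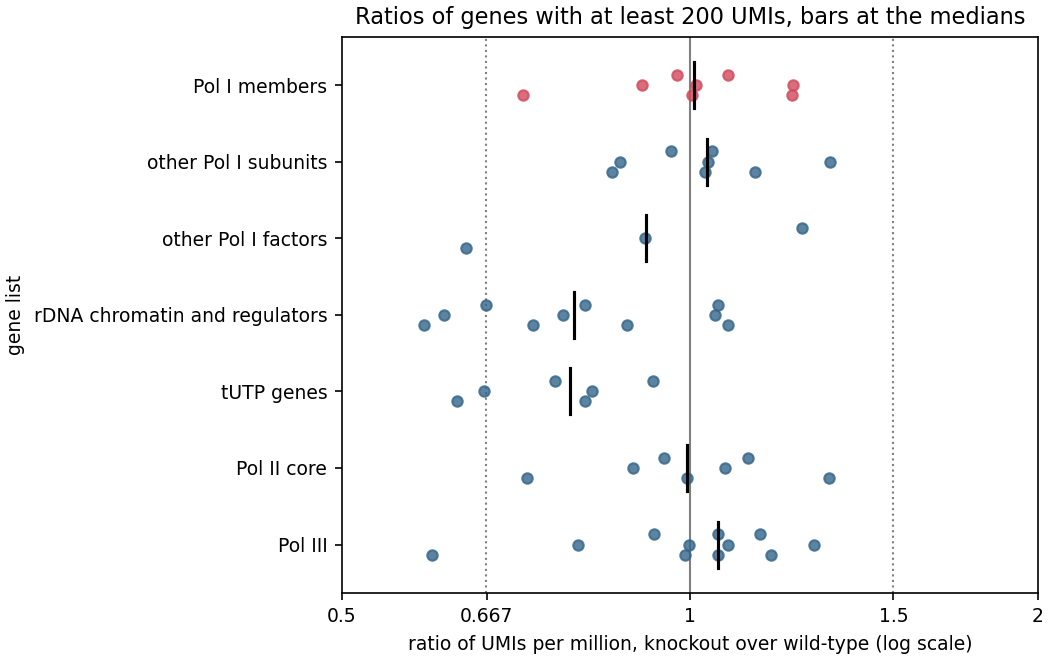
Ratio of CPM of knockout over wild-type on a log axis for each gene with at least 200 UMIs, by list, with red points for the 8 Pol I genes, blue points for other lists, black bars at list medians and dotted lines at 1.5-fold. The Pol I median is 1.01 and that of the tUTP genes 0.788, with all 6 tUTP points left of 1.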

How the data were processed

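The authors ran an inDrop pipeline described elsewhere. Each deposited file holds UMI counts of 1 library by gene and barcode, unnormalized and without removal of shallow barcodes. The submitters' processing notes name the build mm10 and Seurat 2.3.4, and the aligner and annotation of these libraries are not given in the sources used here. Of 54146 gene identifiers, 54079 matched GENCODE M21 (GRCm38) without the version. Barcodes were numbered anew in each file, so barcodes shared between libraries could not be counted.

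Cells had at least 500 UMIs and at most 20% mitochondrial UMIs, as in the study's methods, which removed 1 wild-type and 15 knockout barcodes for the latter. UMIs were summed over cells and scaled to all UMIs of those cells (CPM), with exact Poisson intervals. Ratios had exact conditional binomial and shares exact binomial (Clopper-Pearson) intervals, and the limit for a count of 0 was 3 counts. Shares at 500 UMIs came from the hypergeometric distribution. The RP set held 87 protein-coding cytoplasmic RP genes, without pseudogenes and mitochondrial RP genes. For counts past 1.5-fold and list medians, 0.5 was added to each count and genes had at least 200 UMIs over both libraries. No cell was removed as a doublet, and Scrublet marked 27 wild-type and 18 knockout cells. Depth was 12079546 wild-type and 10027710 knockout UMIs over all barcodes. The calculation was tested on simulated data. The 8 genes were all described. In other lists the genes with the highest and lowest ratios were named, together with genes chosen after their values were seen. The likeness rule was the 5 genes of highest Pearson r, of which 1 is not reported here. The 8 genes and all lists were chosen with earlier results of these data known. Python 3.11.15, numpy 2.4.6, scipy 1.17.1, scanpy 1.11.5 and matplotlib 3.10.9 were used.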

Additional observations from a re-analysis of the deposited data

Results flagged for a closer look

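*Polr1a*, the gene of the largest Pol I subunit, had a ratio of low-RP over other cells of 0.932 for wild-type and 1.03 for knockout cells, which lie on opposite sides of 1. The difference between the libraries was not tested, and both intervals include 1, although the wild-type ratio was 0.889 (0.819 to 0.966) without RP and mitochondrial genes in the total and 0.888 (0.795 to 0.994) with an RP limit of 15%. In the knockout library the ratio was 0.926 once cells under 5% RP share were left out, the same side as in wild-type cells. With an RP limit of 5% the ratios were 1.35 (0.879 to 1.98) in wild-type and 2.11 (1.77 to 2.51) in knockout cells, both above 1. By depth the ratio was 0.732 (0.601 to 0.891) in wild-type cells of 10000 UMIs and over. It was 1.54 (1.17 to 2.00) in knockout cells of 2000 to under 5000 UMIs.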

How the results depend on the processing

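The summed ratio of knockout over wild-type, 0.916, was 0.888 without cells under 10% RP share, 0.885 without those under 5%, 0.860 in cells of 5000 to under 10000 UMIs (0.943 to 0.976 in the other classes of depth) and 0.885 with median of ratios scaling. It was 1.01 without *Taf1d*, an alternative added after seeing the data. With these 3 selections of cells 1 gene of the 8, *Taf1d*, passed 1.5-fold, in place of 0, against 12.3%, 15.9% and 23.2% of all genes tested there. The summed ratio of low-RP over other wild-type cells, 1.03, was 0.986 without RP and mitochondrial genes in the total, 1.65 with an RP limit of 5% and 1.09 with one of 15%, and it turned to 0.873 without *Taf1d*. Its interval included 1 in 6 of 14 settings, among them 1.03 with either mitochondrial limit. In knockout cells the same ratio, 1.13, was 1.08 without RP and mitochondrial genes in the total, 2.17 with a limit of 5%, 1.03 in cells of 5000 to under 10000 UMIs (1.69 in the shallowest class) and 1.02 with cells under 5% left out (added), the last 2 with intervals that included 1, and it turned to 0.910 without *Taf1d*. *Ubtf* in knockout cells turned from 0.816 to 1.38 with a limit of 5%, as its levels by RP class show. The interval of *Polr1c* in knockout cells, under 1 at 0.883, included 1 in 5 of 13 settings: with a higher minimum of UMIs per cell (0.891), without mitochondrial genes in the total (0.899), in cells of 5000 to under 10000 UMIs (0.824), with an RP limit of 15% (0.939) and with cells under 5% left out (0.923). The cause of these shifts was not tested. In cells of 5000 to under 10000 UMIs *Polr1a* was at 0.997 and *Polr1c* at 1.02 between the libraries, each on the other side of 1, which for *Polr1a* lies outside the interval over all cells. In the other classes of depth *Polr1a* was at 1.51, 1.20 and 1.14, with intervals above 1. *Polr1b* and *Polr1e* stayed over 1 and *Polr1d* and *Taf1d* under 1 between the libraries in each of the 12 settings run for single genes, but the intervals of *Polr1e* included 1 in 5 of them and those of *Polr1a* in 6. RP genes taken by name (92 genes, added) moved no summed ratio beyond its interval. The alternatives for single genes along RP share were added after seeing the data. No paired analysis was possible because each group is 1 library. With 1 library per genotype, and with 209 and 206 UMIs for *Polr1e*, differences within the printed intervals were not detectable at this depth.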

Other observations

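*Gm42418*, which is annotated over ribosomal RNA-like sequence, was at 13240.2 CPM in wild-type and 9751 CPM in knockout cells, a ratio of 0.736 (0.730 to 0.743), and its low-RP ratios were 1.59 and 2.02. *Gm26917* of the same kind was at 60.8 and 64.5 CPM, a ratio of 1.06 (0.949 to 1.18). inDrop primes from poly(A), so these counts are not a measure of ribosomal RNA.

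*Lin28a* had low-RP ratios of 1.36 in wild-type and 1.76 in knockout cells. *Sox2* was at 159 and 92.4 CPM, a ratio of 0.581 (0.536 to 0.631), the lowest of the 10 ES-like markers, beside 0.717 for *Taf1d*.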
